A study of Homo sapiens with 9 samples.

Results

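Genes that build sterols and fatty acids were followed in MV4-11 cells, a human acute myeloid leukaemia line, after 24 h with JPX-0700, JPX-0750 or the solvent DMSO. A list of 34 gene symbols was looked up in the deposited expression table, which names 26929 genes, and all 34 symbols were found. The list holds 17 enzymes of the sterol branch, 4 genes called SREBP regulators here and 13 enzymes of the fatty acid branch. The SREBP regulators are SREBF1 and SREBF2, which encode the SREBP transcription factors, and INSIG1 and SCAP, which control these factors. Per the series title, both compounds degrade STAT3 and STAT5, which are transcription factors. Each of the groups JPX-0700, JPX-0750 and DMSO had 3 libraries, all from the same cell line at the same 24 h time point. No source used here gives the compound dose or says whether replicates came from separate cultures, so p-values measure the spread between these libraries, which may be technical.

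Cells make cholesterol from acetyl-CoA through mevalonate, isoprenoid diphosphates, squalene and lanosterol, and they make fatty acids by extending acetyl-CoA with malonyl-CoA, then elongating, desaturating and activating the product. Both branches answer to the SREBP factors encoded by SREBF1 and SREBF2. When sterols are plentiful, INSIG proteins hold SREBP and its escort SCAP in the endoplasmic reticulum. When sterols run low, SCAP carries SREBP to the Golgi, proteases release its active fragment, and that fragment binds sterol regulatory elements and E-boxes in promoters of the genes of both branches. Proliferating blood cells use both products for new membranes.

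Promoter sequences are shown for SREBF2 and INSIG1, regulators whose own genes are known SREBP targets, and for HMGCS1, which encodes the enzyme that makes HMG-CoA at the head of the sterol branch. Each is the 150 bases before the annotated start, 5′ to 3′ on the gene's strand, taken from RefSeq on GRCh38.p14, and HMGCS1 is shown at the farther upstream of its listed starts. Capitals mark the letters of a sterol regulatory element (the longer run in SREBF2) or an E-box (CACGTG, INSIG1). They also mark an NF-Y box read on the opposite strand (ATTGG, the reverse complement of CCAAT, in SREBF2 and HMGCS1).
SREBF2, chr22:41832955-41833104, plus strand: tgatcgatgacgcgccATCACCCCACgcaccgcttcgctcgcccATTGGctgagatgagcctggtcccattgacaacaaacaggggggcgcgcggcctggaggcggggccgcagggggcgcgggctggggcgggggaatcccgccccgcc
INSIG1, chr7:155297728-155297877, plus strand: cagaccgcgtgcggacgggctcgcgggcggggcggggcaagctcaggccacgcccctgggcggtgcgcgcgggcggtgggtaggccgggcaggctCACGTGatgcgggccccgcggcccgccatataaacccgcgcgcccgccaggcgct
HMGCS1, chr5:43313413-43313562, minus strand: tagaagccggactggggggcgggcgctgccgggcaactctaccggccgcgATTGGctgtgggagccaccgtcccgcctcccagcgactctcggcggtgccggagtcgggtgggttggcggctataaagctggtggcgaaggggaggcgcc

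In SREBF2 the sterol regulatory element began at base -134 from the start, and in INSIG1 the E-box began at base -55. The motif letters were searched on both strands from 250 bases before to 50 bases after each RefSeq start, where 31 of the 34 genes had an entry. The sterol regulatory element spelled as in SREBF2 was found in 1 of these 31 genes, SREBF2, and in 0.0586% of 27305 genes with an entry, where a gene counts if any of its listed starts holds the letters. CACGTG was found in 5 of 31 (LSS, SC5D, INSIG1, SCAP and ELOVL5) and in 8.77% of all genes. CCAAT was found in 24 of 31 and in 39.7% of all genes, and the Sp1 box GGGCGG in 29 of 31 and in 48.3% of all genes. Several genes of the list have more than 1 start: by start, CCAAT was in 28 of 45 windows, against 34.6% of all 35116, and GGGCGG in 37 of 45, against 45%. CACGTG was in 6 of 45 windows, against 7.26%, and the SC5D windows overlap and share the same CACGTG. None of the 4 motifs contains another. A match describes letters only, and other spellings of these elements were not searched.

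Libraries differed in ways that touch every gene of the list. Recovered totals ran from 739418 to 1852375 reads with JPX-0700, from 726043 to 1941860 with JPX-0750 and from 2701317 to 6305586 with DMSO. Structured noncoding RNAs took 8.98% ± 0.994, 11.9% ± 1.38 and 0.119% ± 0.102 of reads with JPX-0700, JPX-0750 and DMSO (SD, n = 3 each). In each group 1 library (JPX-0700 replicate 3, JPX-0750 replicate 3 and DMSO replicate 1) detected fewer genes (9816 to 10407) than the other 6 libraries (13068 to 14616), and results for the listed genes are given with all 9 libraries and, where a call differs, without these 3. Of 10 myeloid markers all were in the table. CD33, SPI1, LYZ, CSF1R, CD68, HOXA10 and MEIS1 had reads in every library, while AZU1 and HOXA9 had 0 to 3 reads per library. Their summed normalised counts ran over 2288 to 3702 with JPX-0700, 1790.4 to 3720.1 with JPX-0750 and 5109.9 to 8310.1 with DMSO, sums that LYZ, a lysozyme gene of monocytes, dominates. LYZ fell with JPX-0750 (adjusted p = 0.0292) and, without the 3 libraries, with JPX-0700 as well (adjusted p = 0.0276). CSF1R lay wholly below DMSO with both compounds but did not pass the threshold (adjusted p = 0.284 with JPX-0700 and 0.769 with JPX-0750). Of 8 tested myeloid markers, 7 stood lower and 1 higher with JPX-0700, and 6 lower and 2 higher with JPX-0750. MEIS1, a homeobox gene of leukaemic progenitors, lay the other way, at 172 to 730 with JPX-0700, 297 to 503 with JPX-0750 and 120.4 to 200.2 with DMSO, and without the 3 libraries it rose with JPX-0750 (adjusted p = 0.0435). CD68 was the other marker that stood higher with JPX-0750. In replicates 1 to 3 CD68 had 217, 149 and 5.56 with JPX-0700, 168, 255 and 120 with JPX-0750 and 84.4, 82.8 and 152 with DMSO. The value of 5.56 rests on 2 reads. The 6 T and NK markers summed to 22.4 to 228 with JPX-0700, 3.33 to 72.8 with JPX-0750 and 34.5 to 52.1 with DMSO, with KLRD1 at 0 in all 9 libraries. NKG7 alone had reads in every library and made up nearly all of the DMSO sums. In replicates 1 to 3 NKG7 had 36.9, 22.4 and 2.78 with JPX-0700, 6.85, 59.1 and 3.33 with JPX-0750 and 52.1, 39.1 and 32.3 with DMSO. JPX-0700 replicate 3 alone held reads of the T-cell gene CD3D (18 reads). Most of the sum of 228 in that library came from NCAM1 (158 normalised, 57 reads), while CD2 had 6 reads and CD3E 0 reads there. The epithelial markers EPCAM, KRT19 and CDH1 were at 0 in all 9 libraries. Reads of the fibroblast gene COL1A1 numbered 2 to 5 under JPX-0700, 1 to 65 under JPX-0750 and 0 in every DMSO library. It rose under both compounds once the 3 libraries were left out (adjusted p = 0.0162 for JPX-0700, 0.0293 for JPX-0750). These calls rest on 5 and 3 reads in JPX-0700 replicates 1 and 2, and on 5 and 1 in those of JPX-0750. COL1A1 was tested only because treated libraries lifted its mean normalised count to at least 5. Its calls are therefore no independent support for a rise. The part of these differences in the results below was not tested. In bulk RNA, fewer cells of a type and less RNA per cell cannot be told apart.

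No gene of the list passed the threshold of adjusted p under 0.05 in any comparison with all 9 libraries, using limma on log2(normalised count + 1) with adjustment over 12301 tested genes. Of the 34 genes, 33 passed the filter of a mean normalised count of at least 5, and ACACA did not. Of the 33, 3 (LSS, HSD17B7 and ME1) passed only through the treated libraries, with DMSO means under 5, so counts and medians over the 33 are a description. With JPX-0700, 0 of 33 rose and 0 fell, against 5.28% and 0.496% of all tested genes, and 6 of 33 had an unadjusted p under 0.05, against 19.6% of all tested genes. With JPX-0750, 0 of 33 rose and 0 fell, against 3.9% and 0.0732% of all tested genes, and 1 of 33 had an unadjusted p under 0.05, against 14.2%. Run on recovered reads, limma-voom called 0 genes of the list with JPX-0700 and 1 (LSS) with JPX-0750. The median standard error of a log2 fold change over the list was 0.87, so a typical 95% interval was several-fold wide. Both comparisons use the same DMSO libraries.

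**Figure D1:**
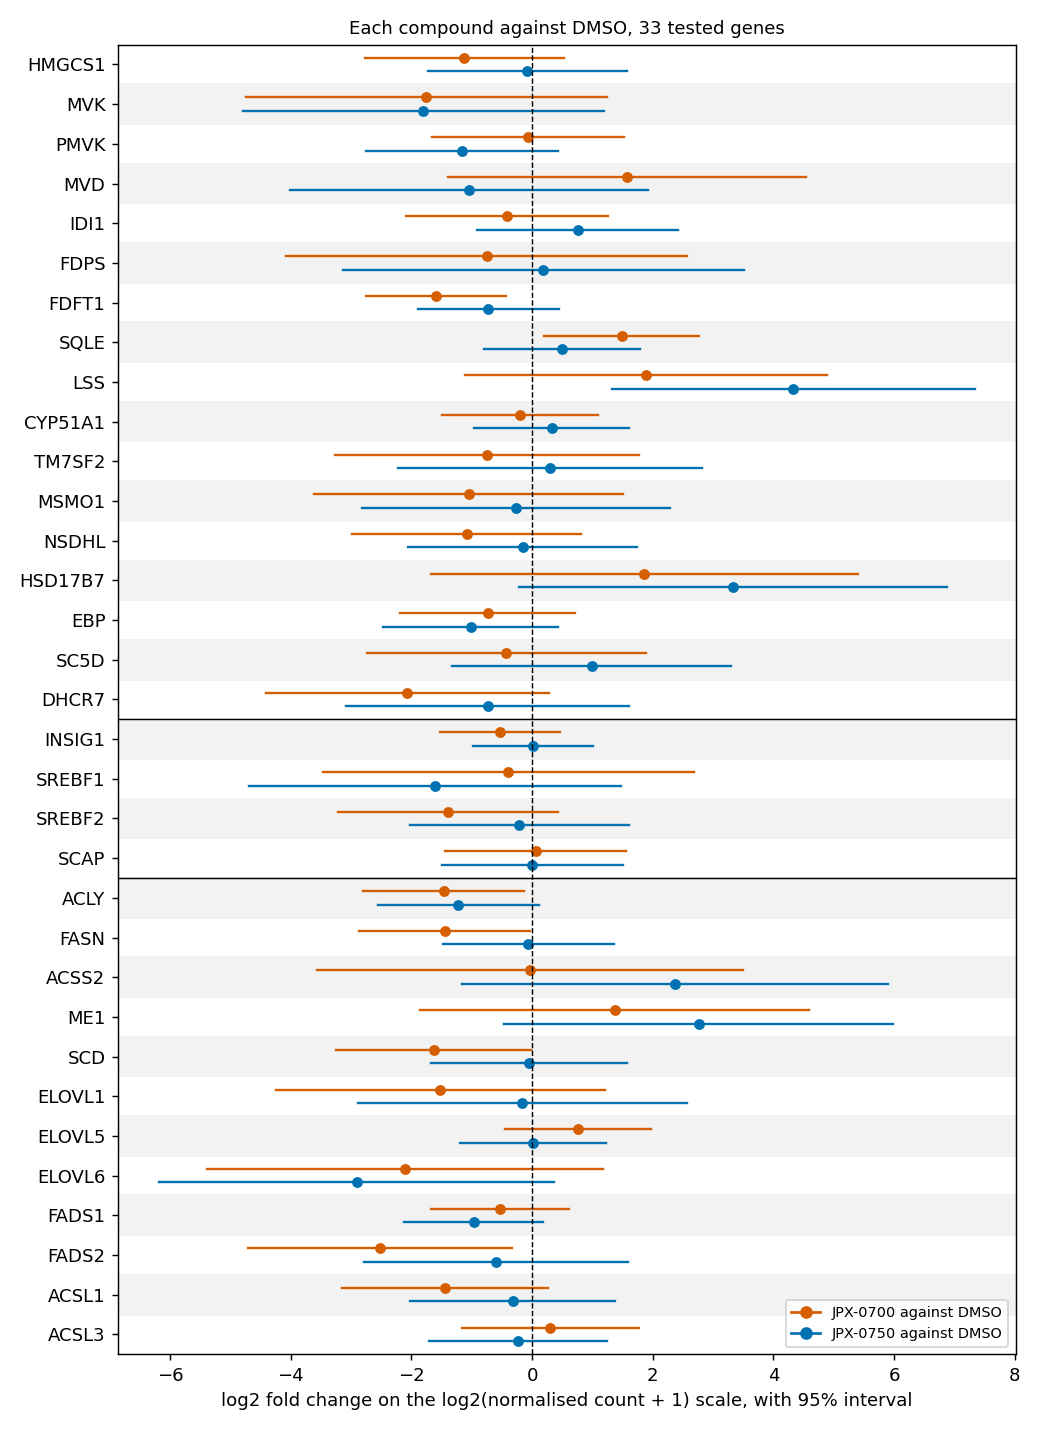
Log2 fold change of each of 33 tested genes with JPX-0700 (orange) and JPX-0750 (blue) against DMSO, on the log2(normalised count + 1) scale, with bars for the 95% interval (3 libraries per group). Most intervals cross 0; with JPX-0700, 5 lie below 0 (FDFT1, ACLY, FASN, SCD and FADS2) and SQLE lies above it, and with JPX-0750 the LSS interval runs from 1.33 to 7.34.

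With JPX-0700 the sterol branch had a median log2 fold change of -0.73 over 17 genes, 4 higher and 13 lower than in DMSO, beside 0.14 over all tested genes. With JPX-0750 it was -0.078, 8 higher and 9 lower, beside 0.26 over all tested genes. The fatty acid branch stood lower with JPX-0700, at a median of -1.45 over 12 tested genes with 3 higher and 9 lower, and at -0.20 with 3 higher and 9 lower with JPX-0750. These medians rest on the libraries chosen. With JPX-0700 the sterol median was 0.0036 without JPX-0700 replicate 3 and -0.12 without DMSO replicate 1, and the fatty acid median was -0.85 without JPX-0700 replicate 3 and -0.94 without JPX-0700 replicate 1. In the 6 libraries left without those with the fewest genes they were 0.32 and 0.45 in the sterol branch and -0.69 and -0.73 in the fatty acid branch, for JPX-0700 and JPX-0750, beside 0.39 and 0.47 over all tested genes. Separation of the groups was counted as well. With JPX-0700, 0 of 33 genes had all treated libraries above all DMSO libraries and 7 had all below (FDFT1, MSMO1, DHCR7, FASN, SCD, FADS2 and ACSL1), against 16.5% and 10.3% of all tested genes. With JPX-0750, 2 of 33 lay wholly above (LSS and SC5D) and 1 wholly below (ACLY), against 19.7% and 9.18% of all tested genes.

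The mevalonate enzymes come first in the pathway. HMGCS1 (chr5:43287470-43313412), which joins acetyl-CoA and acetoacetyl-CoA into HMG-CoA, had normalised counts of 152, 261 and 22.2 with JPX-0700, 216, 227 and 165 with JPX-0750 and 378, 211 and 119.5 with DMSO, in the order of replicates 1 to 3. The groups overlapped, and the lowest value was JPX-0700 replicate 3. HMGCS1 had a log2 fold change of -1.12 ± 0.79 (95% interval -2.78 to 0.53, adjusted p = 0.44) with JPX-0700 and -0.078 ± 0.79 (95% interval -1.73 to 1.58, adjusted p = 0.978) with JPX-0750 (± SE here and below). MVK, the first of the kinases that phosphorylate mevalonate, ranged over 4.61 to 48.4 with JPX-0700, 1.67 to 59.1 with JPX-0750 and 22.1 to 79 with DMSO. PMVK, the next kinase, ranged over 111 to 203 with JPX-0700, 21.7 to 146 with JPX-0750 and 109 to 164 with DMSO. MVD, the decarboxylase that yields isopentenyl diphosphate, ranged over 46.1 to 261 with JPX-0700, 0 to 95.5 with JPX-0750 and 25.3 to 62 with DMSO, and JPX-0750 replicate 3 had no MVD read while JPX-0700 replicate 3 had the highest normalised count. IDI1, the isomerase of that product, spanned 22.2 to 152, 109 to 278 and 73.8 to 179.6 in JPX-0700, JPX-0750 and DMSO libraries. FDPS, which makes farnesyl diphosphate, spanned 2.78 to 33.5, 1.67 to 91 and 3.77 to 58.4 in the same order. All 6 genes of this stretch overlapped between each compound and DMSO, and their smallest adjusted p was 0.44 with JPX-0700 and 0.514 with JPX-0750. FDPS has 8 annotated pseudogenes, and an antisense transcript lies over the 3′ ends of FDPS, IDI1 and HMGCS1; no source used here says which strand was counted, so their reads cannot be told apart from such partners.

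After the branch point to sterols stand the genes with the smallest p-value of the list in each comparison with DMSO, FDFT1 with JPX-0700 and LSS with JPX-0750. FDFT1 (chr8:11795582-11839298), squalene synthase, which commits farnesyl diphosphate to sterols, had 134, 257 and 189 with JPX-0700, 202, 277 and 706 with JPX-0750 and 539, 776 and 429.6 with DMSO. Every JPX-0700 library lay below every DMSO library, while JPX-0750 replicate 3 lay among the DMSO values. Its log2 fold change was -1.59 ± 0.55 (95% interval -2.76 to -0.43, adjusted p = 0.11) with JPX-0700 and -0.73 ± 0.55 (95% interval -1.89 to 0.44, adjusted p = 0.584) with JPX-0750. Without the 3 libraries it was -1.63 ± 0.46 with JPX-0700, past the threshold (adjusted p = 0.0461), and -1.28 ± 0.46 with JPX-0750 (adjusted p = 0.0903).

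SQLE (chr8:124998505-125022283), squalene epoxidase, a rate-limiting step of sterol synthesis after mevalonate, had 889, 242 and 1789.6 with JPX-0700, 274, 387 and 468 with JPX-0750 and 332, 194 and 271 with DMSO. JPX-0700 replicates 1 and 3 stood well above all other libraries, but replicate 2 lay within the DMSO range. For SQLE the log2 fold change was 1.48 ± 0.61 (95% interval 0.19 to 2.77, adjusted p = 0.186) with JPX-0700 and 0.50 ± 0.61 (95% interval -0.79 to 1.79, adjusted p = 0.755) with JPX-0750. Leaving out 1 library at a time gave 0.84 (without JPX-0700 replicate 3) to 2.28 (without JPX-0700 replicate 2, the library within the DMSO range, adjusted p = 0.0173), and without the 3 libraries it was 1.01 (adjusted p = 0.262).

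LSS (chr21:46188446-46228774), lanosterol synthase, which closes the sterol rings, had 13.8, 3.73 and 0 with JPX-0700, 24, 13.6 and 30 with JPX-0750 and 0, 0.383 and 0 with DMSO. It was near absent with DMSO, with 1 read over 3 libraries, against 4 reads with JPX-0700 and 28 with JPX-0750, and every JPX-0750 library lay above every DMSO library. The ratio of its reads to DMSO per scaled depth was 26.4-fold (exact 95% counting interval 2.61 to 1300.4) with JPX-0700 and 140.4-fold (exact 95% counting interval 23.2 to 5743) with JPX-0750, an interval that covers counting error only. Its log2 fold change was 1.89 ± 1.43 (95% interval -1.12 to 4.89, adjusted p = 0.477) with JPX-0700 and 4.33 ± 1.43 (95% interval 1.33 to 7.34, adjusted p = 0.119) with JPX-0750. Without the 3 libraries LSS rose with both compounds, by 2.83 ± 0.80 with JPX-0700 (adjusted p = 0.0457) and 4.02 ± 0.80 with JPX-0750 (adjusted p = 0.0154). LSS was tested only because treated libraries lifted it past the filter (DMSO mean 0.128), so its call is no independent support for a rise. A transcript on the other strand lies over its annotated 3′ end.

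HSD17B7 (chr1:162790702-162812823), a ketosteroid reductase that acts in the removal of methyl groups from lanosterol, had 23, 63.4 and 0 with JPX-0700, 65, 63.7 and 6.66 with JPX-0750 and 0.898, 0.767 and 8.61 with DMSO. In both compounds replicates 1 and 2 were above all DMSO libraries and replicate 3 was not. With all 9 libraries the log2 fold change was 1.86 ± 1.68 (95% interval -1.68 to 5.40, adjusted p = 0.557) with JPX-0700 and 3.33 ± 1.68 (95% interval -0.21 to 6.87, adjusted p = 0.388) with JPX-0750. Without the 3 libraries HSD17B7 rose by 3.25 ± 0.94 with JPX-0700 (adjusted p = 0.0493) and 3.99 ± 0.94 with JPX-0750 (adjusted p = 0.0265). Its DMSO mean of 3.43 was also below the filter, so the same limit holds. It rests on 22, 37 and 19 reads with JPX-0700, JPX-0750 and DMSO, and 2 annotated pseudogenes could share reads with it, as could those of CYP51A1, SCD and FADS2 with these genes.

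DHCR7 (chr11:71427287-71449043), which carries out the last reduction of one route to cholesterol, had 9.22, 11.2 and 11.1 with JPX-0700, 24, 31.8 and 28.3 with JPX-0750 and 60.2, 55.2 and 31.2 with DMSO. All JPX-0700 libraries lay below all others, and JPX-0750 replicate 2 reached the lowest DMSO value. For DHCR7 this gave a log2 fold change of -2.07 ± 1.11 (95% interval -4.41 to 0.28, adjusted p = 0.32) with JPX-0700 and -0.73 ± 1.11 (95% interval -3.08 to 1.61, adjusted p = 0.812) with JPX-0750, and -1.93 ± 0.61 with JPX-0700 without the 3 libraries (adjusted p = 0.0613).

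The remaining 6 enzymes trim lanosterol to cholesterol. CYP51A1, the demethylase that acts on lanosterol, was among the steadiest, at 94.5 to 207 with JPX-0700, 123 to 265 with JPX-0750 and 131 to 161 with DMSO. The sterol reductase TM7SF2 ranged over 2.78 to 59.6, 26.7 to 68.2 and 26.9 to 57.5 in JPX-0700, JPX-0750 and DMSO libraries. MSMO1, the methylsterol oxidase, ranged over 11.1 to 23, 9.1 to 108 and 26 to 51.8, so that JPX-0700 lay wholly below DMSO while JPX-0750 overlapped it. NSDHL, the dehydrogenase of the same demethylation, ranged over 13.9 to 231, 75.3 to 138 and 88.3 to 185 in that order, and the isomerase EBP over 83 to 225, 68.5 to 139.9 and 131 to 527. SC5D, a sterol desaturase, ranged over 5.56 to 55.3 with JPX-0700, 48.3 to 63.7 with JPX-0750 and 25.1 to 30.7 with DMSO, so that JPX-0750 lay wholly above DMSO, with a log2 fold change of 0.99 ± 1.10 (95% interval -1.33 to 3.30, adjusted p = 0.729). None of these 6 passed the threshold with or without the 3 libraries.

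**Figure D2:**
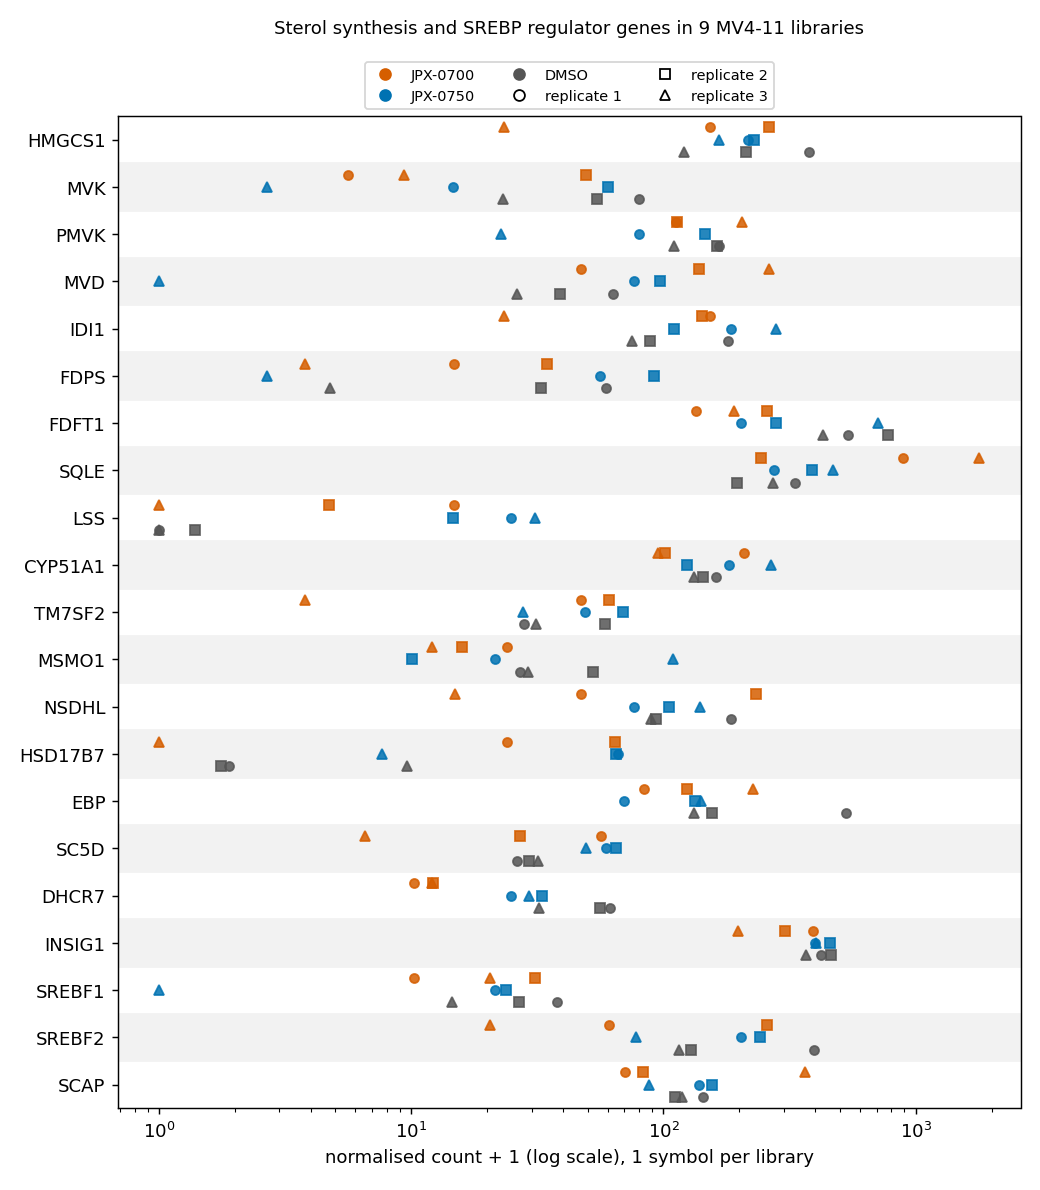
Normalised count + 1 (log axis) of 17 sterol branch genes and 4 SREBP regulators, 1 symbol per library, for JPX-0700, JPX-0750 and DMSO. FDFT1, MSMO1 and DHCR7 have all JPX-0700 symbols below the DMSO symbols, LSS and SC5D have all JPX-0750 symbols above them, and triangles of the treated groups (replicate 3) often lie far from their partners.

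The regulators of the pathway showed no gene past the threshold. INSIG1 (chr7:155297878-155310235), the retention factor whose transcription is a standard readout of SREBP activity, had 392, 302 and 197 with JPX-0700, 397, 455 and 403 with JPX-0750 and 420.2, 462 and 366 with DMSO. It had the smallest standard error of the list. Against DMSO it stood at -0.53 ± 0.47 (95% interval -1.52 to 0.46, adjusted p = 0.546) with JPX-0700 and 0.012 ± 0.47 with JPX-0750 (adjusted p = 0.997) on the log2 scale, and its 3 JPX-0750 libraries lay within 397 to 455.

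SREBF2 (chr22:41833105-41907305), which encodes the SREBP that mainly drives sterol genes, had 59.9, 257 and 19.5 with JPX-0700, 202, 241 and 76.6 with JPX-0750 and 396, 128 and 114 with DMSO. All groups overlapped and replicate 3 was the lowest library of both compounds. SREBF2 had a log2 fold change of -1.40 ± 0.87 (95% interval -3.22 to 0.42, adjusted p = 0.387) with JPX-0700 and -0.21 ± 0.87 (95% interval -2.03 to 1.61, adjusted p = 0.939) with JPX-0750, against 0.041 and 0.86 without the 3 libraries.

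SREBF1, which encodes the SREBP forms that mainly drive fatty acid genes, had 9.22, 29.8 and 19.5 with JPX-0700, 20.5, 22.7 and 0 with JPX-0750 and 36.8, 25.7 and 13.5 with DMSO. These values rest on 17, 11 and 133 reads, the groups overlapped, and the log2 fold change was -0.39 ± 1.46 with JPX-0700 and -1.61 ± 1.46 with JPX-0750. The gene RAI1 lies over the 3′ end of SREBF1 on the other strand, so reads of SREBF1 are uncertain. SCAP, the escort, had 69.1, 82 and 364 with JPX-0700, 137, 155 and 86.6 with JPX-0750 and 142, 109.7 and 117 with DMSO, with JPX-0700 replicate 3 the highest and no separation of either compound from DMSO. SCAP had a log2 fold change of 0.061 ± 0.71 with JPX-0700 and 0.0024 ± 0.71 with JPX-0750.

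The fatty acid branch begins with the enzymes that supply acetyl-CoA and the synthase, none of which passed the threshold with all 9 libraries. ACLY (chr17:41866917-41930545), which splits citrate into cytosolic acetyl-CoA for both branches, had 78.3, 160.3 and 456 with JPX-0700, 130.1, 196 and 378 with JPX-0750 and 510.0, 576 and 419 with DMSO. All JPX-0750 libraries lay below all DMSO libraries, and of the JPX-0700 libraries replicate 3 alone reached the DMSO range. ACLY had a log2 fold change of -1.47 ± 0.63 (95% interval -2.80 to -0.13, adjusted p = 0.209) with JPX-0700 and -1.22 ± 0.63 (95% interval -2.56 to 0.11, adjusted p = 0.401) with JPX-0750. Without the 3 libraries ACLY fell with both compounds, with log2 fold changes of -2.12 ± 0.45 with JPX-0700 (adjusted p = 0.0203) and -1.62 ± 0.45 with JPX-0750 (adjusted p = 0.0447).

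FASN (chr17:82078338-82098236), the fatty acid synthase, had 83, 268 and 195 with JPX-0700, 202, 323 and 1193 with JPX-0750 and 309.8, 856 and 334 with DMSO. JPX-0700 libraries lay wholly below DMSO, and JPX-0750 replicate 3 held the highest value of all 9. FASN had a log2 fold change of -1.45 ± 0.67 (95% interval -2.86 to -0.027, adjusted p = 0.246) with JPX-0700 and -0.062 ± 0.67 (95% interval -1.48 to 1.36, adjusted p = 0.979) with JPX-0750, and without the 3 libraries -1.83 ± 0.67 (adjusted p = 0.0923) and -1.06 ± 0.67 (adjusted p = 0.291).

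Other suppliers were thinly covered. ACACA, acetyl-CoA carboxylase, had 6 reads with JPX-0700, 6 with JPX-0750 and 4 with DMSO and was not tested; its ratio to DMSO per scaled depth was 9.9-fold (exact 95% counting interval 2.35 to 47.7) with JPX-0700 and 7.52-fold (exact 95% counting interval 1.78 to 36.2) with JPX-0750. ME1, malic enzyme, a source of NADPH, had 2, 30 and 1 reads. Its ratio was 13.2-fold (exact 95% counting interval 0.687 to 779) with JPX-0700 and 150.5-fold (exact 95% counting interval 25 to 6139) with JPX-0750, in which JPX-0750 replicate 3 held most reads. The intervals of ACACA and ME1 pool the libraries of a group and leave out the spread between them. In the limma fit ME1 stood at 1.37 with JPX-0700 and 2.76 with JPX-0750 on the log2 scale. Its smallest adjusted p over the alternative settings was 0.211 and 0.101. ACSS2, which makes acetyl-CoA from acetate, ranged over 0 to 46.1 with JPX-0700, 20.5 to 102 with JPX-0750 and 0 to 24.2 with DMSO and overlapped throughout.

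Enzymes that modify fatty acids followed. FADS2 (chr11:61816203-61867354), a front-end desaturase of polyunsaturated fatty acids, had 18.4, 7.45 and 8.34 with JPX-0700, 37.7, 36.4 and 56.6 with JPX-0750 and 66.4, 81.3 and 51.7 with DMSO. JPX-0700 lay wholly below both other groups, and JPX-0750 replicate 3 lay within the DMSO range. The log2 fold change was -2.52 ± 1.04 (95% interval -4.71 to -0.34, adjusted p = 0.184) with JPX-0700 and -0.60 ± 1.04 (95% interval -2.79 to 1.58, adjusted p = 0.837) with JPX-0750, on 9, 53 and 382 reads for JPX-0700, JPX-0750 and DMSO. Without the 3 libraries FADS2 fell with JPX-0700, at -2.36 ± 0.63 (adjusted p = 0.0392), and was -0.79 ± 0.63 with JPX-0750 (adjusted p = 0.4).

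FADS1, the partner desaturase that lies head to head with FADS2 on chromosome 11, had 175, 402 and 475 with JPX-0700, 168, 427 and 188 with JPX-0750 and 538, 410.3 and 461 with DMSO. A longer gene model of FADS2 lies over the 3′ end of FADS1 on the other strand, so reads of the pair are uncertain. All groups overlapped, with JPX-0700 replicate 1 and JPX-0750 replicates 1 and 3 the lowest. The log2 fold change was -0.53 ± 0.55 with JPX-0700 and -0.97 ± 0.55 with JPX-0750.

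SCD (chr10:100347233-100364826), stearoyl-CoA desaturase, which makes monounsaturated fatty acids, had 138, 130.4 and 27.8 with JPX-0700, 89, 241 and 645 with JPX-0750 and 246, 349.7 and 179.8 with DMSO. JPX-0700 lay wholly below DMSO, while JPX-0750 held both the value below all DMSO libraries (replicate 1) and the value above them (replicate 3). SCD had a log2 fold change of -1.63 ± 0.77 (95% interval -3.25 to -0.011, adjusted p = 0.253) with JPX-0700 and -0.052 ± 0.77 (95% interval -1.67 to 1.57, adjusted p = 0.987) with JPX-0750.

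ELOVL6, the elongase of palmitate, had 0, 14.9 and 2.78 with JPX-0700, 10.3, 0 and 0 with JPX-0750 and 8.08, 13.8 and 34.5 with DMSO, on 5, 3 and 109 reads. Several treated libraries were at 0 but both groups overlapped DMSO. The ratio to DMSO per scaled depth was 0.303-fold (exact 95% counting interval 0.0964 to 0.728) with JPX-0700 and 0.138-fold (exact 95% counting interval 0.028 to 0.414) with JPX-0750. These intervals pool the libraries of a group and leave out the spread between them. In the limma fit ELOVL6 stood at -2.10 with JPX-0700 and -2.91 with JPX-0750 on the log2 scale. Its smallest adjusted p over the alternative settings was 0.284 and 0.206. ELOVL5, which elongates polyunsaturated fatty acids, ranged over 239.6 to 619.7 with JPX-0700, 157 to 219.9 with JPX-0750 and 129.7 to 307 with DMSO. ELOVL1, the elongase of very long saturated chains, ranged over 4.61 to 41, 10.3 to 78.3 and 12.7 to 86.2 in that order. Of the ligases that activate long-chain fatty acids to CoA esters, ACSL1 ranged over 13.9 to 104 with JPX-0700, 78.7 to 168 with JPX-0750 and 116 to 163 with DMSO, wholly below DMSO with JPX-0700. ACSL3, a ligase found on lipid droplets, ranged over 119 to 189, 54.8 to 278 and 93.4 to 177.

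**Figure D3:**
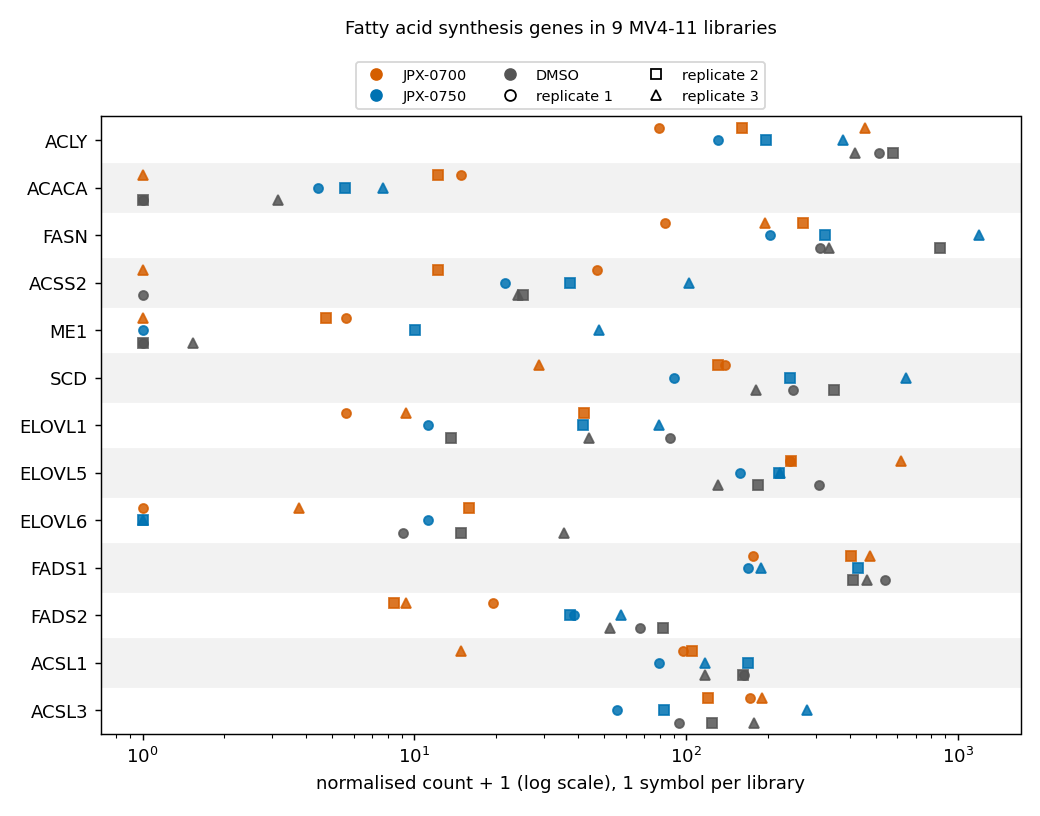
Normalised count + 1 (log axis) of 13 fatty acid branch genes, 1 symbol per library, for JPX-0700, JPX-0750 and DMSO. FASN, SCD, FADS2 and ACSL1 have all JPX-0700 symbols below the DMSO symbols and ACLY has all JPX-0750 symbols below them; ACACA, ME1 and ELOVL6 sit near the low end of the axis.

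As a share of all gene reads of a library, the sterol branch took 0.0590%, 0.0562% and 0.0556% with JPX-0700, 0.0454%, 0.0606% and 0.0752% with JPX-0750, and 0.116%, 0.0883% and 0.0706% with DMSO. The fatty acid branch took 0.0314%, 0.0456% and 0.0388% with JPX-0700, 0.0263%, 0.0540% and 0.102% with JPX-0750, and 0.0960%, 0.115% and 0.0908% with DMSO. By this measure JPX-0700 lay wholly below DMSO in both branches and JPX-0750 overlapped it. The measure divides by reads that include the structured RNAs. Over protein-coding reads alone the fatty acid branch took 0.0392% to 0.0556% with JPX-0700, 0.0344% to 0.127% with JPX-0750 and 0.0924% to 0.117% with DMSO, still apart for JPX-0700. The sterol branch then took 0.0672% to 0.0736%, 0.0595% to 0.0937% and 0.0719% to 0.118% in the same order, and overlapped. On the authors' scale the summed normalised counts of the sterol branch averaged 2246 ± 538 with JPX-0700, 2033 ± 386 with JPX-0750 and 2158 ± 636 with DMSO, and those of the fatty acid branch 1527 ± 463, 2018 ± 1191 and 2364 ± 411 (SD, n = 3 each), and both overlapped between groups. The sums are led by the most read genes of each branch, SQLE and FDFT1, and FASN, FADS1 and ACLY.

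**Figure D4:**
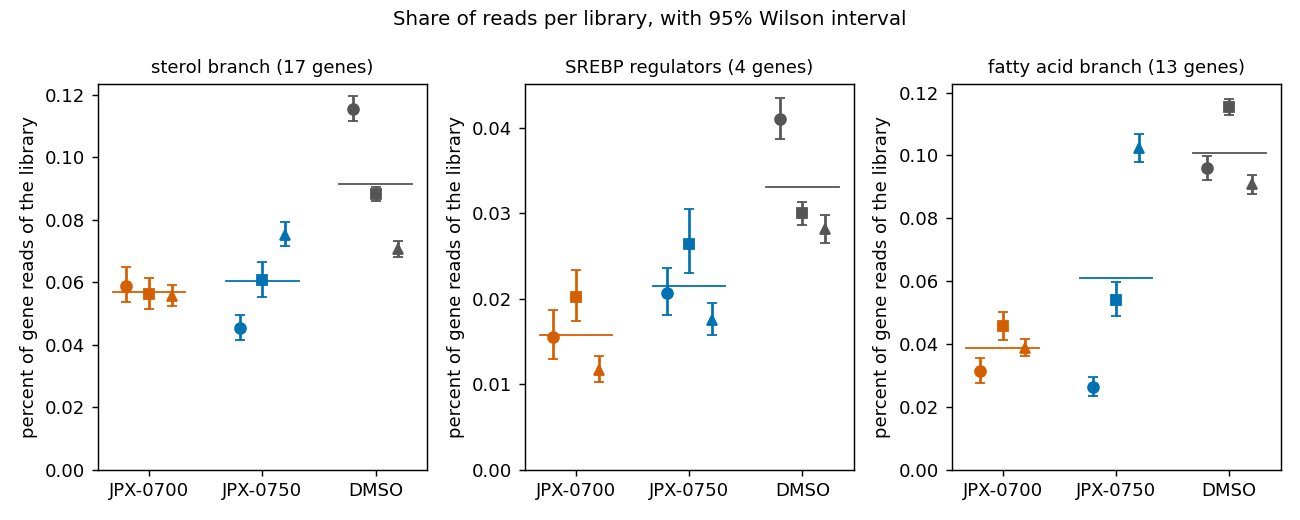
Percent of gene reads per library taken by each gene group, with 95% Wilson intervals for counting error and a line at the group mean, for JPX-0700, JPX-0750 and DMSO (symbols: circle, square and triangle for replicates 1, 2 and 3). All JPX-0700 libraries lie below all DMSO libraries in each panel, and JPX-0750 replicate 3 reaches 0.0752% in the sterol branch and 0.102% in the fatty acid branch.

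The compounds were also set against each other directly, as 1 pair at the same 24 h. Their doses are not known here. For JPX-0750 against JPX-0700, 0 of 33 genes rose and 0 fell, where 0% of 12301 tested genes did, and 0 of 33 had an unadjusted p under 0.05, against 3.21% of all tested genes; limma-voom also called 0. Of the 33, 3 lay wholly above (DHCR7, INSIG1 and FADS2) and 1 wholly below (ELOVL5), against 4.72% and 3.63% of all tested genes. The sterol branch had a median log2 difference of 0.93 with 12 genes higher and 5 lower, and the fatty acid branch 1.24 with 8 higher and 4 lower, beside 0.10 over all tested genes. Leaving out the 3 libraries, these medians were 0.12 and 0.16, beside 0.037. The difference was 1.92 ± 1.04 (95% interval -0.27 to 4.11, adjusted p = 0.848) for FADS2, 1.33 ± 1.11 (95% interval -1.01 to 3.68, adjusted p = 0.848) for DHCR7 and 0.55 ± 0.47 (95% interval -0.45 to 1.54, adjusted p = 0.848) for INSIG1. It was 1.58 ± 0.77 (95% interval -0.041 to 3.20, adjusted p = 0.848) for SCD, 1.38 ± 0.67 (95% interval -0.035 to 2.80, adjusted p = 0.848) for FASN and 2.45 ± 1.43 (95% interval -0.56 to 5.45, adjusted p = 0.848) for LSS. These intervals reach from near 0 or below it to several-fold, so the data neither separate the compounds for these genes nor show that they act alike.

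With the 3 libraries of fewest genes left out, 2 libraries per group remained and more of the table passed the threshold. With JPX-0700, 2 of 33 genes then rose (LSS and HSD17B7) and 3 fell (ACLY, FDFT1 and FADS2), against 17.5% and 3.6% of all tested genes. With JPX-0750, 2 of 33 rose (LSS and HSD17B7) and 1 fell (ACLY), against 17.8% and 3.05%. Between the compounds 0 of 33 rose or fell, where 0% of 12301 did. Both genes that rose passed the filter only through the treated libraries, so the count of rises supports nothing on its own. This choice of libraries was made with earlier results of these data known.

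**Figure D5:**
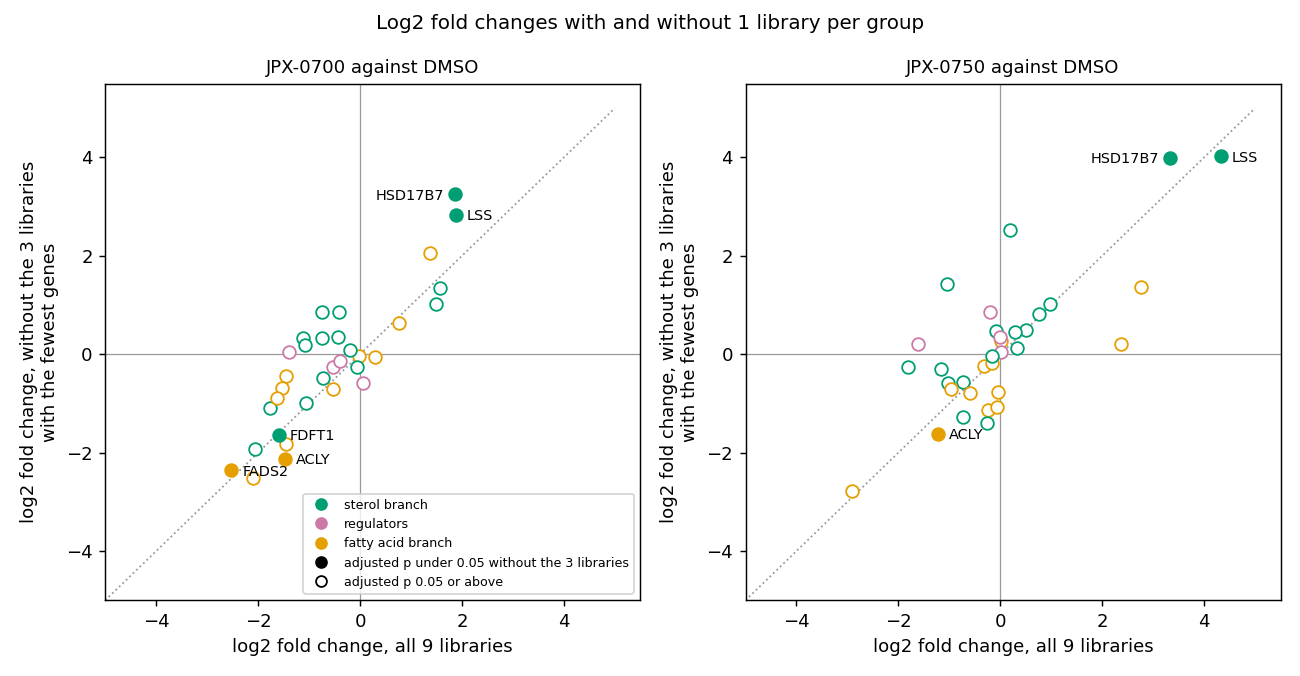
Log2 fold change of 33 genes without the 3 libraries with the fewest genes (vertical) against all 9 libraries (horizontal), for JPX-0700 (left) and JPX-0750 (right); filled symbols have an adjusted p under 0.05 without the 3 libraries and the dotted line marks equal values. LSS and HSD17B7 stand high in both panels, and ACLY (both panels), FDFT1 and FADS2 (left) are the filled symbols below 0.

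Neighbouring pathways were counted in the same fit. With all 9 libraries 0 genes passed the threshold with either compound among 7 tested other genes of sterol synthesis, 9 of SREBP processing, 14 of sterol uptake, transport and efflux, 9 other genes of fatty acid synthesis, 18 of fatty acid oxidation and 16 of glycerolipid and lipid droplet metabolism, where shares of 5.28% (risen) and 0.496% (fallen) held for all tested genes under JPX-0700, and 3.9% (risen) and 0.0732% (fallen) under JPX-0750. Genes with an unadjusted p under 0.05 in these lists numbered 1, 2, 1, 1, 2 and 5 with JPX-0700, in that order, against 19.6% of all tested genes, while JPX-0750 gave 1, 0, 0, 1, 2 and 1, against 14.2%. Their median log2 fold changes with JPX-0700 were 0.41, -1.22, -0.84, -1.36, -0.76 and -0.69. Those with JPX-0750 were 0.19, 0.22, 0.13, -0.93, -0.39 and -0.17. Calls appeared in these lists without the 3 libraries. With JPX-0700, STARD4 and PCYT1A rose and LIPA, SLC25A1, HACD3 and DGAT2 fell, so that rises numbered 0, 0, 1, 0, 0 and 1 and falls 0, 0, 1, 2, 0 and 1 in the order of the lists, against 17.5% and 3.6% of all tested genes. With JPX-0750, ABCA1, STARD4 and PCYT1A rose and LBR, SLC25A1, HADHB and ETFA fell. Rises then numbered 0, 0, 2, 0, 0 and 1 and falls 1, 0, 0, 1, 2 and 0, against 17.8% and 3.05%. ABCA1 had 7, 4 and 0 reads with JPX-0750, 0 in each JPX-0700 library and 0, 6 and 2 with DMSO. It passed the filter only through JPX-0750 libraries, so its call is no independent support for a rise. The medians were then 0.27, -0.25, -0.043, -0.91, -0.49 and -0.46 with JPX-0700. For JPX-0750 they were -0.30, -0.38, -0.23, -0.96, -0.29 and -0.22, so that those of other sterol synthesis, SREBP processing and sterol uptake turned from above to below 0.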

How the data were processed

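RNA from MV4-11 cells was read from the 3′ end with the QuantSeq kit, per the labels. Tools listed without roles in the submitters' processing notes are STAR 2.4.2a, featureCounts 2.0.3, FastQC 0.11.9, SAMtools 1.4 and DESeq2, with build GRCh38. The authors deposited 1 table of normalised counts, which are not raw counts. In every library 100% of the nonzero values were a whole number times the lowest one, within 1e-06, so whole reads and depth (726043 to 6305586) were recovered. No molecular identifiers are named, so counting intervals cover counting error only. No source used here gives the annotation, the strand counted or the treatment of multi-mapping reads. Counts at 3′ ends were compared between groups, not between genes.

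Values were tested as log2(normalised count + 1) with limma 3.58.1 in R 4.3.3, variance trend on, 1 mean per group over 9 libraries (6 residual degrees of freedom), for genes with a mean of at least 5 (12301 of 26929). Tests were two-sided, Benjamini-Hochberg over all tested genes, threshold 0.05; "rose" and "fell" refer to it. The script was run on simulated counts with the same spread setting for every gene and library. The simulation did not model the 3 libraries with the fewest genes, so it gives no error rate for these data. Low-read ratios have exact 95% intervals. Coordinates and promoters come from RefSeq, GRCh38.p14 (24159 symbols matched directly, 1498 by synonym, 1272 unmatched), and strands, overlaps and pseudogenes from GENCODE 29. The genes and lists were chosen with earlier results of these data known. Values in every library are given for the 5 genes of each branch with the smallest p against DMSO and the 3 with the highest mean. Replicate numbers are in the labels without a stated meaning. Deviations of same-numbered libraries correlated at 0.129, 0.171 and 0.190 between the compounds, and at -0.143 to -0.0436 with DMSO. JPX-0750 replicate 1 correlated best with JPX-0700 replicate 2, so the numbers were not taken to pair libraries. Alternatives were other pseudocounts, filters, scalings, limma-voom, a replicate block and omitted libraries.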

Additional observations from a re-analysis of the deposited data

How the results depend on the processing

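With all 9 libraries 0 listed genes passed the threshold in each comparison. With JPX-0700 this count was 2 (ACLY and FDFT1 fell) under total-sum scaling, 1 (FDFT1) under protein-coding scaling, 5 without the 3 libraries with the fewest genes, and 0 to 1 leaving out 1 library at a time, SQLE without JPX-0700 replicate 2 and ACLY without JPX-0700 replicate 3. With JPX-0750 it was 1 (LSS) under limma-voom and with only the 2 groups compared, 3 without the 3 libraries, and 0 to 1 leaving out 1 library, LSS without JPX-0700 replicate 3, which only changes the shared spread. The median log2 fold change of the sterol branch with JPX-0700 was 0.32 without the 3 libraries, against -0.73 with all 9, and that of the fatty acid branch was -0.69, against -1.45. Leaving out 1 library gave -0.88 to 0.0036 and -1.60 to -0.85, and total-sum scaling -1.37 and -2.16. With JPX-0750 the sterol median of -0.078 became -0.61 under total-sum scaling, -0.34 under TMM, -0.27 under limma-voom, -0.30 under protein-coding scaling, 0.45 without the 3 libraries, and -0.39 to 0.18 leaving out 1 library. With JPX-0750 the fatty acid median of -0.20 became -0.73 under total-sum scaling, -0.45 under TMM, -0.41 under protein-coding scaling and -0.73 without the 3 libraries. Leaving out 1 library gave -0.79 to 0.21. For JPX-0750 against JPX-0700 the sterol median of 0.93 was 0.52 for genes with a mean of at least 50, 0.12 without the 3 libraries and 0.080 to 1.38 leaving out 1 library. The fatty acid median of 1.24 was 0.25 and 0.16 under the first 2 of these and 0.37 to 1.66 leaving out 1 library. The value of 0.37, without JPX-0750 replicate 3, stood beside 0.44 over all tested genes. The cause of these shifts was not tested. Total-sum scaling moved the median of all tested genes to -0.50 with JPX-0700 and -0.23 with JPX-0750, from 0.14 and 0.26. In some alternative 13, 17 and 15 of 33 genes changed sign with JPX-0700, with JPX-0750 and between the compounds. Across the table, calls without the 3 libraries numbered 2601 with JPX-0700 and 2559 with JPX-0750, against 710 and 489 with all 9.

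Pairing same-numbered libraries with a replicate block left 0 listed genes called in each comparison, and 694, 473 and 0 genes of the whole table with JPX-0700, with JPX-0750 and between the compounds. A block with only the 2 groups compared left 0 listed genes called and 262, 236 and 0 of the table. The edgeR and DESeq2 alternatives were not run. The block with 2 groups, protein-coding scaling and the omission of 3 libraries were chosen after seeing the data. The low depth of treated libraries, where 1 read was worth 1.67 to 4.61 normalised counts, limits genes such as LSS, ME1, ACACA and ELOVL6.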

Other observations

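The lipid genes below lie outside the list and were chosen after their values were seen; none passed the threshold with all 9 libraries. LBR, a nuclear envelope protein that is also a sterol reductase, had 290.3, 249.7 and 153 with JPX-0700, 71.9, 141 and 229.9 with JPX-0750 and 722, 417 and 503 with DMSO, so that both compounds lay wholly below DMSO. Its log2 fold change was -1.25 ± 0.57 with JPX-0700 (adjusted p = 0.231) and missed the threshold with JPX-0750 as well (adjusted p = 0.0579). With the 3 libraries of fewest genes left out, LBR fell with JPX-0750, at -2.17 ± 0.40 (adjusted p = 0.0124). CPT1A, which admits long-chain fatty acids to mitochondria for oxidation, had 143, 362 and 19.5 with JPX-0700, 239.6, 455 and 302 with JPX-0750 and 688, 459.8 and 544 with DMSO, and a log2 fold change of -2.45 ± 0.77 with JPX-0700 (adjusted p = 0.0751). Every library of both compounds lay below every DMSO library, with JPX-0700 replicate 3 the lowest, and without the 3 libraries the log2 fold change with JPX-0700 was -1.13 ± 0.52 (adjusted p = 0.161).

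In the glycerolipid list, PCYT1A, an enzyme of phosphatidylcholine synthesis, had 189, 287 and 381 with JPX-0700, 257, 182 and 50 with JPX-0750 and 85.3, 37.2 and 75.9 with DMSO. Its log2 fold change was 2.12 ± 0.71 with JPX-0700 (adjusted p = 0.0974), and without the 3 libraries it rose with both compounds (adjusted p = 0.0229 with JPX-0700 and 0.026 with JPX-0750). DGAT2, a triglyceride synthase, had 0, 3.73 and 2.78 with JPX-0700, 6.85, 22.7 and 1.67 with JPX-0750 and 34.1, 44.5 and 34.5 with DMSO, and a log2 fold change of -3.88 ± 1.43 with JPX-0700 (adjusted p = 0.132). DGAT2 fell with JPX-0700 without the 3 libraries, at -4.21 ± 0.96 (adjusted p = 0.0249). It had 0, 1 and 1 reads in JPX-0700 replicates 1 to 3, near the floor, so the size of this fall is uncertain. LPIN2, a phosphatidate phosphatase, and HILPDA, a lipid droplet protein, had log2 fold changes of 1.68 ± 0.60 (adjusted p = 0.119) and -2.72 ± 0.99 (adjusted p = 0.128) with JPX-0700, and without the 3 libraries 1.27 ± 0.44 (adjusted p = 0.0819) and -0.93 ± 0.83 (adjusted p = 0.451). STARD4, a sterol carrier and known SREBP target, had 32.3, 29.8 and 0 with JPX-0700, 47.9, 50 and 1.67 with JPX-0750 and 26, 3.83 and 8.61 with DMSO, and without the 3 libraries it rose by 2.23 with JPX-0700 (adjusted p = 0.0442) and 2.87 with JPX-0750 (adjusted p = 0.0202). Replicate 3 of both compounds had at most 1 STARD4 read.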
